A study of Mus musculus with 6 samples.

Results

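The endoplasmic reticulum folding and secretion genes are 40 genes of the pathway that collagen and other secreted proteins pass through, out of 31053 genes listed in each library. They were taken by symbol and grouped by role into 11 folding chaperones, 4 disulfide isomerases, 6 stress sensors and regulators, 12 genes of translocation and signal cleavage, and 7 genes of exit, retrieval and shaping. All 40 were found.

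The series holds 6 libraries of sorted cells, 1 for each of 6 groups, so that no difference between groups has a replicate check and no p-value is given. All groups carry the genotype Tbx18CreER/+;Rosa26tdT/+, in which a tamoxifen-activated Cre expressed from Tbx18 switches on the red fluorescent protein tdTomato (tdT). All received tamoxifen for 4 days and then a washout, and tdT+ cells were sorted. The heart libraries are ventricles of a sham-operated group, and the infarct and the peri-infarct region after ligation of the left anterior descending artery (LAD). The brain libraries are cortex of a sham group, and the infarct and the peri-infarct region after photothrombosis. Tbx18 marks pericytes and smooth muscle cells, and also some fibroblasts and mesothelial cells, so the sort holds several cell types. The number of animals per library and their age are not given in the sources used here.

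Secreted and membrane proteins enter the endoplasmic reticulum (ER) through the Sec61 channel, lose their signal peptide, and fold with chaperones such as BiP (Hspa5) and with disulfide isomerases. P4hb also serves as a subunit of the prolyl hydroxylase that modifies procollagen. Folded cargo leaves in COPII vesicles, and KDEL receptors return escaped chaperones. When unfolded protein accumulates, the sensors IRE1, PERK and ATF6 raise chaperones and transcription factors such as Xbp1, Atf4 and Ddit3 (CHOP). Matrix-producing cells pass collagen through this route. Only transcripts were counted here, so collagen output below means collagen transcripts and not secreted protein.

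Promoter sequence is shown first because 2 of the elements searched were more frequent among the members than among all genes. All 3 elements were chosen for their known part in the ER stress response, to which many members belong. The higher shares are therefore a description and no test. The RefSeq promoter table (build GRCm38.p6, 250 bases before to 50 after a start site) held 31 of the 40 genes, and 3 motifs were searched on both strands. The ER stress response element (ERSE), searched as CCAAT, then 9 bases of any kind, then CCACG, occurred in the promoters of 7 of 31 members, against 0.14% of all genes in the table. Those 7 were 6 folding chaperones, Calr, Canx, Creld2, Dnajc3, Hsp90b1 and Hspa5, and the isomerase Pdia6. The core of the unfolded protein response element (UPRE), TGACGTGG, occurred in 2 members, Kdelr3 and Sec24d, against 0.71% of all genes. The element bound by ATF4 and CHOP (CARE), TGATGNAAN, occurred in 2 members, the regulators Herpud1 and Trib3, which is 6.5% of the members against 4.5% of all genes, a share near the background. None of the 7 translocation genes in the table held any of these letters in this window, and no match overlapped another. The stretches below run 5′ to 3′ on the gene's strand, with the matched letters in capitals (reverse complement where the match is on the other strand). They lie before the RefSeq start site except in Trib3, where the match begins 14 bases after it.
Hspa5, ERSE, chr2:34772005-34772063, + strand: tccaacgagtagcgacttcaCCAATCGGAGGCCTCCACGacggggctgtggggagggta
Calr, ERSE, chr8:84847055-84847113, - strand: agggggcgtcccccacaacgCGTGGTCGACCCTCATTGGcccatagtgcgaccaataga
Hsp90b1, ERSE, chr10:86705513-86705571, - strand: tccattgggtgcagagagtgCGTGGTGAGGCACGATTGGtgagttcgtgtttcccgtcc
Pdia6, ERSE, chr12:17266471-17266529, + strand: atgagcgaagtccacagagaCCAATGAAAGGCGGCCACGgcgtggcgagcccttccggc
Kdelr3, UPRE core, chr15:79516358-79516405, + strand: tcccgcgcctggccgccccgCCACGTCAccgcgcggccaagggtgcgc
Sec24d, UPRE core, chr3:123267450-123267495, + strand: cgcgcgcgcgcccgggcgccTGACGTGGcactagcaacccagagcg
Herpud1, CARE, chr8:94386296-94386344, + strand: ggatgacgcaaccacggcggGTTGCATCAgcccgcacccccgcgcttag
Trib3, CARE, chr2:152344029-152344057, - strand: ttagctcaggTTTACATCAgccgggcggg
A match is a description of these letters and not of a bound site. Hsp90b1 held 2 ERSE matches, and the one nearer to its start is shown.

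The libraries differed in ways that touch every comparison below. Median UMIs (unique molecular identifiers, each counting 1 captured transcript) per kept cell were 1409, 10856 and 9016 in heart sham, infarct and peri-infarct, and 3335.5, 25334 and 2748.5 in brain. Free RNA, estimated as the level of fibroblast markers in endothelial-like cells relative to the whole library, was 24.3% in heart sham and 1.95% to 7.80% in the other libraries. Between 105 and 335 barcodes per library also occurred in another library (1.03% to 9.35%), most often between heart peri-infarct and brain peri-infarct (204), and these cells were left out. Cells were classed by fixed marker lists. Fibroblast-like cells numbered 4012, 4060 and 4518 in heart and 298, 588 and 279 in brain, and pericyte-like cells 365, 984 and 578, and 1397, 415 and 1032. In brain infarct 37.0% of cells passed no gate, and only 4 of the 11 fibroblast markers stood 2-fold above the other cells. Levels are UMIs of the gene scaled to a common total (counts per 1000000 UMIs, CPM) of all cells of a class in a library, and 26 such sums of at least 50 cells were made over fibroblast-like, pericyte-like, smooth muscle-like, endothelial-like and macrophage-like cells.

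Among these 5 classes, fibroblast-like cells held the highest level of most of the secretory genes. Mesothelial-like cells, found only in heart, were not among the 26 sums and had higher member sums than fibroblast-like cells of the same libraries. Of the 40 members, 28 had their highest of the 26 sums in fibroblast-like cells, which supply 6 of them, and 24 had their lowest in smooth muscle-like cells. For 17 of these 24 the lowest was a single sum, brain peri-infarct smooth muscle-like cells (118 cells). The shares of all genes are not given, so these counts have no background beside them. The 40 members together made up 7910, 11441 and 10827 CPM of fibroblast-like cells in heart sham, infarct and peri-infarct, and 8392, 12361 and 7409 CPM in the brain libraries. Pericyte-like cells stood lower and varied less, at 6051, 6981 and 6647 CPM in heart and 6433, 6634 and 6241 CPM in brain. Fibrillar collagens (Col1a1, Col1a2, Col3a1, Col5a1 and Col5a2 summed) varied far more, at 4845, 29460.0 and 14204 CPM in heart and 3573, 19400.0 and 3317 CPM in brain fibroblast-like cells. Thus collagen was 6.08-fold as high in heart infarct as in sham, while the members' sum was 11441 against 7910 CPM.

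**Figure D1:**
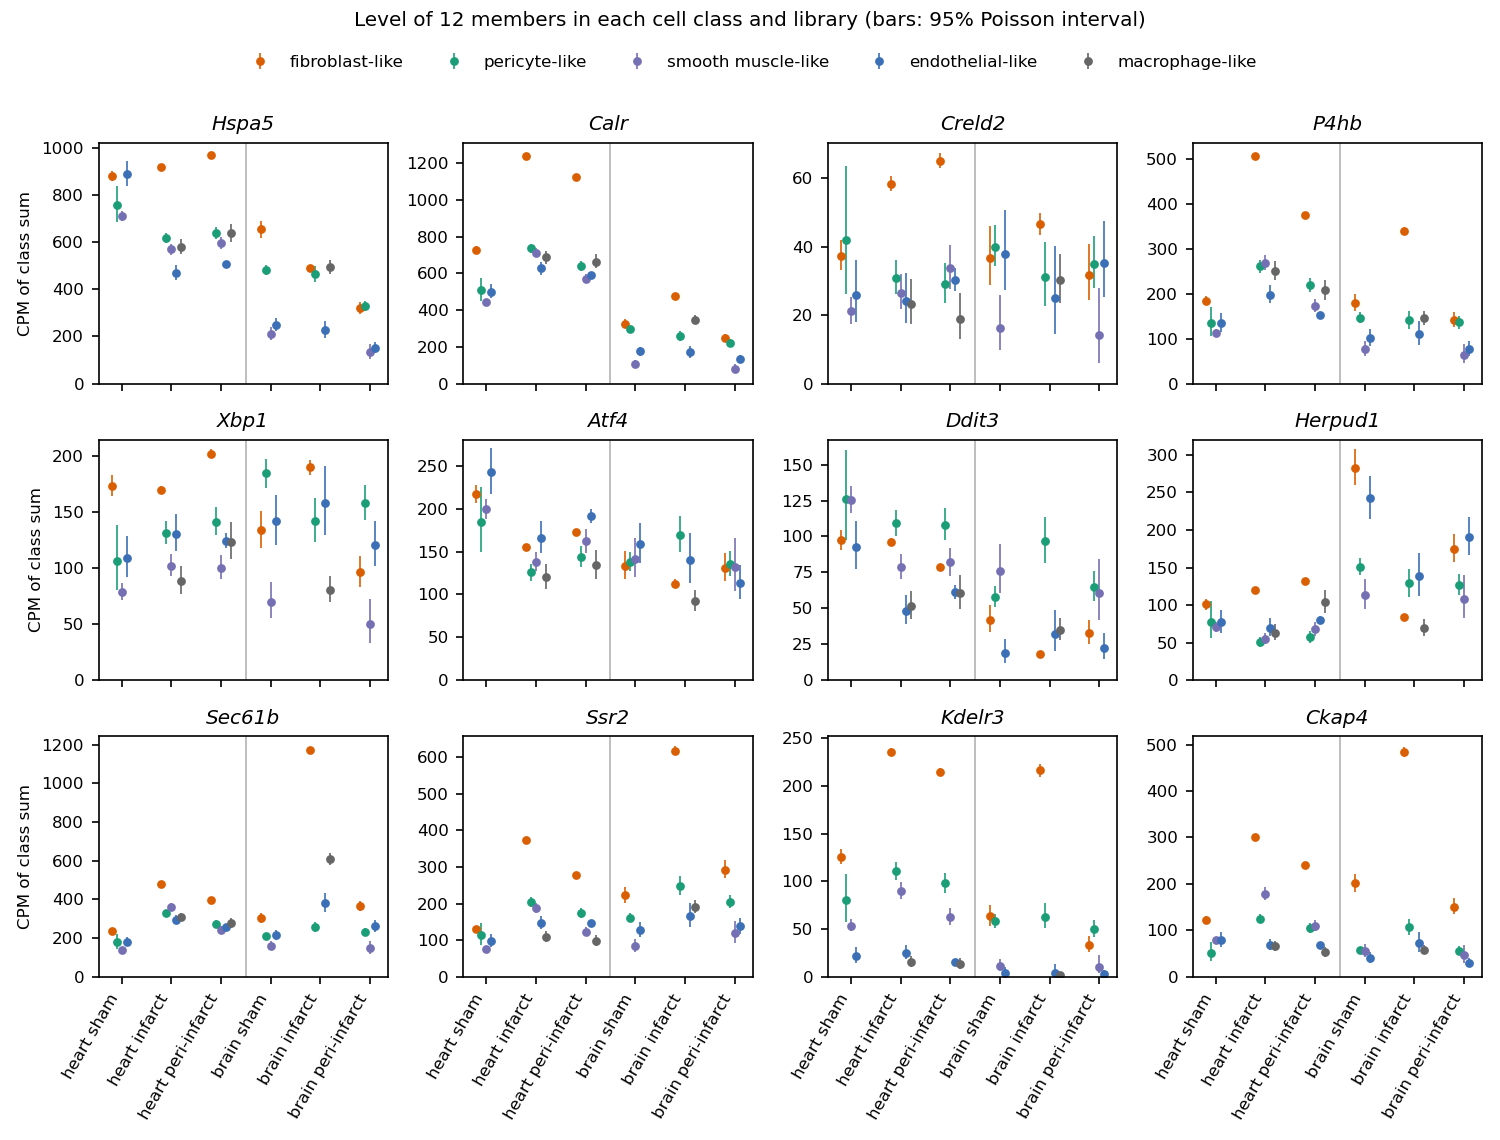
Levels of 12 members in CPM (vertical axis, starting at 0) in each of the 6 libraries (horizontal axis), with 1 point per cell class and bars for the 95% Poisson interval of counting error. Fibroblast-like points (orange) lie highest of the 5 plotted classes in all 6 libraries for Sec61b, Ssr2, Ckap4, Calr and P4hb, while Atf4 and Ddit3 do not have this order.

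Among the folding chaperones, Hspa5 (BiP, the main Hsp70 of the ER, chr2:34771970-34777547) was nearly level across the heart libraries in fibroblast-like cells. Its levels in sham, infarct and peri-infarct were 881, 917 and 969 CPM, and 654, 490 and 320 CPM in brain. Heart therefore stood above brain in every region, and the brain peri-infarct library was the lowest of the 6. In pericyte-like cells Hspa5 was 758, 616 and 638 CPM in heart and 482, 465 and 329 CPM in brain. Hsp90b1 (Grp94, an Hsp90 of the ER) was 752, 949 and 950.3 CPM in heart fibroblast-like cells and 744, 855 and 511 CPM in brain.

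Calr (calreticulin, a lectin chaperone that folds glycoproteins) stood higher in the infarct than in sham in fibroblast-like cells of both organs, at 727, 1240.2 and 1125 CPM in heart and 327, 475 and 246 CPM in brain. Its partner Canx stayed between 213 and 312 CPM in all 6. Manf, a small ER stress-induced secreted protein, was 248, 446 and 439 CPM in heart and 239, 352 and 192 CPM in brain fibroblast-like cells. Both infarct sums of Calr and Manf stood above their own sham by less than 2-fold.

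Creld2 and Sdf2l1, low in counts, are small ER stress-inducible genes that work with the isomerases and with BiP. Creld2 was 37.4, 58.5 and 65.0 CPM in heart and 36.7, 46.7 and 31.9 CPM in brain fibroblast-like cells. Sdf2l1 was 44.4, 37.0 and 50.8 CPM in heart and 43.2, 27.8 and 37.0 CPM in brain, with no common direction. The BiP co-chaperones Dnajb9, Dnajb11 and Dnajc3 and the exchange factor Hyou1 differed between the organs: in infarct against sham their log2 ratios lay between -0.08 and 0.41 in heart and between -1.09 and -0.61 in brain fibroblast-like cells.

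P4hb (protein disulfide isomerase, chr11:120560298-120573253) stood highest in the infarct in both organs. In fibroblast-like cells it was 184, 506 and 374 CPM in heart (in the same order of libraries) and 179, 340 and 141 CPM in brain. Pericyte-like cells had 135, 261 and 219 CPM in heart and 147, 140 and 136 CPM in brain. The heart pericyte-like sums thus moved in the same order as the fibroblast-like ones, and the brain ones were level. Pdia6, an isomerase that acts with BiP, was 359, 655 and 592 CPM in heart and 273, 469 and 182 CPM in brain fibroblast-like cells. Pdia3, which works on the substrates of calnexin and calreticulin, was 488, 616 and 556 CPM in heart and 496, 530.4 and 407 CPM in brain. Pdia4 spanned 75.6 to 150.2 CPM.

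Of the stress regulators, Xbp1, the factor whose messenger IRE1 splices, was 174, 170 and 202 CPM in heart and 134, 190 and 96.1 CPM in brain fibroblast-like cells. The 3′ counts do not tell its spliced form from the unspliced one. Atf4, translated when PERK or other kinases slow protein synthesis, was 217, 156 and 173 CPM in heart and 133, 112 and 131 CPM in brain, with heart sham the highest and brain sham within a few CPM of brain peri-infarct. Ddit3 (CHOP) was 97.5, 95.9 and 78.6 CPM in heart and 42.2, 18.4 and 32.9 CPM in brain.

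Herpud1, a component of ER-associated degradation induced by ER stress (chr8:94386438-94395377), differed in direction between the organs. Fibroblast-like cells had 101, 120.3 and 132 CPM in heart and 283, 83.7 and 175 CPM in brain, so that its highest and its lowest value of the 6 were both in brain. Atf6 (12.4 to 29.1 CPM) and Trib3 (at most 4.96 CPM) were low in fibroblast-like cells. Trib3, a pseudokinase downstream of ATF4 and CHOP, was lower in fibroblast-like than in endothelial-like cells in all 6 libraries, where it reached 6.85 to 16.3 CPM.

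Sec61b and Ssr4 belong to the channel and to the translocon-associated complex beside it. Sec61b (chr4:47474658-47483242) was 238, 480 and 399 CPM in heart fibroblast-like cells and 303, 1174 and 365 CPM in brain. Ssr4 was 259.9, 601 and 493 CPM in heart and 346, 673 and 410 CPM in brain. In both organs the infarct library was the highest and sham the lowest.

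Ckap4, a protein that shapes ER sheets (chr10:84526305-84534062), was 122, 299.9 and 239.8 CPM in heart fibroblast-like cells and 201, 484 and 151 CPM in brain. In pericyte-like cells it was 51.4, 125 and 105 CPM in heart and 56.8, 107 and 55.6 CPM in brain. Ckap4 was thus highest in the infarct library in both classes and both organs. The KDEL receptor Kdelr3 (chr15:79516411-79527739) was 126, 236 and 215 CPM in heart and 63.3, 216 and 33.4 CPM in brain fibroblast-like cells, and no more than 25.3 CPM in any endothelial-like sum. Kdelr2 was 296, 304 and 287 CPM in heart and 279.9, 512 and 341 CPM in brain. Sec24d, a COPII coat subunit that selects cargo, was 38.1, 82.8 and 79.0 CPM in heart and 25.1, 40.7 and 17.0 CPM in brain.

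In heart fibroblast-like cells, infarct against sham, 6 of the 40 members stood at least 2-fold higher and none lower. They were Ssr2, P4hb, Ckap4, Ssr4, Sec24d and Sec61b. Of all genes reaching a mean of 50 CPM, 6.62% were 2-fold higher and 5.47% lower, and 33 members reached that level, Sec24d only through its infarct value. The median log2 ratio, taken on CPM plus a pseudocount of 1, was 0.35 over the 40 members and 0.04 over all genes tested. By role it was 0.90 for exit, retrieval and shaping, 0.64 for the isomerases, 0.52 for translocation, 0.16 for the folding chaperones and -0.03 for the stress regulators. Ssr2 had the highest ratio, 2.86-fold (95% counting interval 2.68 to 3.06), followed by P4hb at 2.75-fold (2.60 to 2.90) and Ckap4 at 2.46-fold (2.30 to 2.63). The lowest log2 ratios were those of Trib3 (-0.78), Atf4 (-0.48) and Sdf2l1 (-0.26). With the estimated free RNA subtracted, 5 members were higher, and the role medians stayed above 0 for the 4 secretory roles.

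Peri-infarct against sham gave 3 higher members in heart fibroblast-like cells, Ssr2, Sec24d and P4hb, and none lower, where 2.83% of all genes tested were higher and 2.59% lower. Sec24d again reached 50 CPM only through its injured library. With a trimmed-mean scaling (TMM) only 1 member was higher, and the split of all genes went from 85 higher and 78 lower to 72 and 103. The member median was 0.41 against 0.12 for all genes, with 0.74 for exit, retrieval and shaping and -0.08 for the stress regulators. Infarct against peri-infarct gave 0 higher and 0 lower members in this class (1.49% and 0.925% of all genes, 45 and 28, or 55 and 21 with TMM), although collagen was 2.07-fold as high.

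Brain fibroblast-like cells, infarct against sham, had 6 members at least 2-fold higher, Sec61b, Kdelr3, Ostc, Ssr2, Sec61g and Ckap4, and 2 lower, Herpud1 and Dnajc3. Of all genes tested, 11.9% were higher and 22.3% lower. Role medians were 0.71 for translocation, 0.67 for exit, retrieval and shaping, 0.47 for the isomerases, -0.44 for the folding chaperones and -0.70 for the stress regulators, against -0.11 for all genes. Sec61b was 3.87-fold as high (3.57 to 4.20), Kdelr3 3.42-fold (2.86 to 4.12), and Herpud1 stood at 0.296 of its sham level (0.268 to 0.327). After Herpud1, the lowest log2 ratios were those of Atf6 (-1.17) and Ddit3 (-1.15), both under 50 CPM.

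TMM moved all log2 ratios of this comparison up by 0.41, which gave 12 higher members and 1 lower, Herpud1, and turned the small ratios of Atf4 and Spcs3 positive. All genes went from 393 higher and 736 lower to 790 and 408. The ratios also moved with transcript length: the median over all genes tested was 0.45, 0.07, -0.28 and -0.86 in 4 bins of rising transcript length (longest coding transcript of a gene), and the members' medians were 0.96, 0.50, 0.12 and -0.77. In heart fibroblast-like cells the 4 bins of all genes lay between 0.01 and 0.07. The part of length in the brain result was not tested. Nor was that of smooth muscle markers (9 genes), which summed to 70.3, 463 and 80.7 CPM in brain sham, infarct and peri-infarct fibroblast-like cells.

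Brain peri-infarct fibroblast-like cells, against sham, had no member higher and 1 lower, Hspa5, where 0.965% of all genes tested were higher and 2.92% lower. With TMM, Hspa5 was no longer past 2-fold and the split of all genes went from 33 higher and 100 lower to 46 and 39. Against the peri-infarct library, the brain infarct had 8 members higher, Kdelr3, Sec61b, Ckap4, Ostc, Pdia6, P4hb, Ssr2 and Ssr3, and Herpud1 lower (9.98% and 14.9% of all genes). Kdelr3 reached a mean of 50 CPM only through the infarct library. TMM gave 12 and 0, with the regulator Xbp1 among the 12, moved the ratios up by 0.22, and turned the split of all genes from 305 higher and 454 lower to 480 and 333. Fibrillar collagen in the brain peri-infarct was 0.928-fold its sham level.

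**Figure D2:**
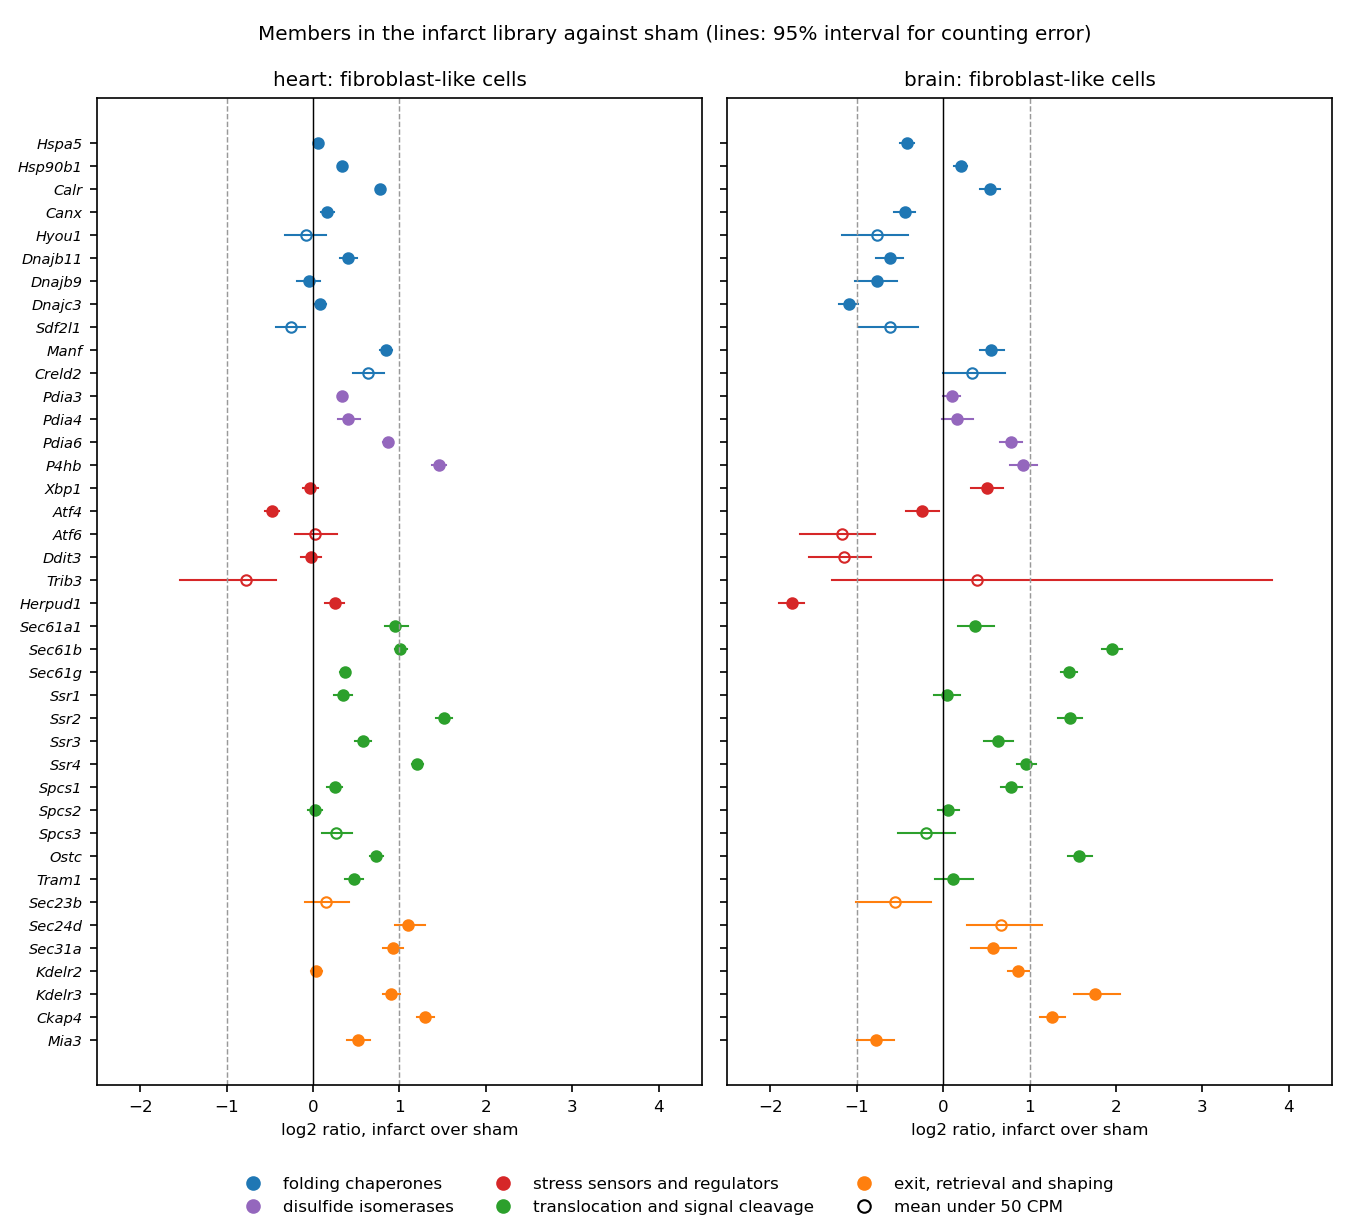
Log2 ratio of each of the 40 members in infarct over sham (horizontal axis) in fibroblast-like cells of heart (left) and brain (right), coloured by role, with lines for the 95% interval of counting error dashed lines at 2-fold and open points for a mean under 50 CPM. In both organs the points of translocation and of exit, retrieval and shaping lie mostly right of 0, with medians of 0.52 and 0.90 in heart and 0.71 and 0.67 in brain, while the stress regulators have medians of -0.03 and -0.70.

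Pericyte-like cells showed smaller differences. Heart infarct against sham had 2 members 2-fold higher, Ckap4 and Sec61a1, and 0 lower, where 4.86% of all genes tested were higher and 5.26% lower, and collagen was 2.88-fold as high. Sec61a1, at 36.2 CPM in sham and 82.1 CPM in infarct, reached a mean of 50 CPM only through the infarct library. Role medians were 0.49 for the isomerases, 0.41 for translocation, 0.28 for exit, retrieval and shaping, 0.22 for the folding chaperones and -0.38 for the stress regulators. Ckap4 and Sec61a1 had log2 ratios of 1.26 and 1.16 and P4hb 0.94, and the lowest were Trib3 (-1.42), Hyou1 (-1.24) and Herpud1 (-0.61). With cells thinned to 1000 UMIs, or averaged over cells, no member was higher. Immediate early and heat shock genes, which respond to dissociation, summed to 16013 CPM in heart sham and 9542 in heart infarct pericyte-like cells, and their part in the stress regulators' ratios was not tested.

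Brain pericyte-like cells, infarct against sham, had 0 members higher and 0 lower, where 3.95% of all genes tested were higher and 2.95% lower. Collagen was 2.92-fold as high, but from a low level. Col1a2 was 199 CPM in sham and 344 CPM in infarct, and Col3a1 42.8 and 299.8 CPM. Fibroblast-like cells of the infarct library had 5849 and 5313 CPM of these genes. Free RNA was estimated at 2.55% in that library, and its part in the collagen ratio was not tested. The members' median was 0.00. Ckap4 had the highest log2 ratio (0.90), followed by Ddit3 (0.73) and Sdf2l1 (0.68), and Trib3 (-0.75, 0 UMIs in infarct), Ssr1 (-0.70) and Sec23b (-0.55) had the lowest. Ddit3 was 57.7, 96.5 and 64.8 CPM in sham, infarct and peri-infarct. Immediate early genes summed to 10916, 18712 and 5321 CPM, also highest in infarct but with peri-infarct below sham. Their part in Ddit3 was not tested.

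Smooth muscle-like cells of heart infarct had 6 members higher than sham, Sec61b, Ssr2, P4hb, Ckap4, Ssr4 and Manf, and 1 lower, Dnajb9 (71.0 CPM in sham, 34.2 CPM in infarct), where 6.82% of all genes tested were higher and 6.17% lower. TMM left 4 higher and moved the split of all genes from 201 and 182 to 143 and 268. Endothelial-like cells of heart infarct had 0 and 0 (3.61% and 5.35%), with a median of 0.19. With TMM, Hspa5 and Ddit3 were 2-fold lower there, and the split of all genes went from 118 higher and 175 lower to 88 and 203.

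Within a library, depth and region are shared, and fibroblast-like cells could be set against other classes. In all 6 libraries 26 of 40 members stood higher in fibroblast-like than in endothelial-like cells, against 17.4% of all genes tested. These were all 4 isomerases, 11 of 12 translocation genes, 5 of 7 exit, retrieval and shaping genes, 6 of 11 folding chaperones and 0 of 6 stress regulators. Beside 17.4% of all genes, 0 of 6 is near the background. Kdelr3 had a median log2 ratio of 3.44 (range 2.46 to 5.33) and Ckap4 of 2.20 (0.62 to 2.73). In heart infarct 13 members were at least 2-fold higher and 0 lower (13.3% and 14.6% of all genes), and in brain infarct 20 and 0 (15.9% and 18.8%). Kdelr3, Sec24d and Pdia4 in heart infarct, and Kdelr3 and Sec31a in brain infarct, were under 50 CPM in endothelial-like cells. With TMM the counts were 23 higher in heart infarct, the regulators Ddit3 and Herpud1 among them, and 22 in brain infarct. TMM moved these ratios up by 0.27 and 0.22, and the splits of all genes went from 432 higher and 473 lower to 583 and 371, and from 491 and 581 to 662 and 500. The 26 members kept their direction in all 6 libraries with TMM, and 29 members then met the rule. The share of all genes that met it with TMM is not given, so the 29 has no background beside it.

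Fibroblast-like cells stood above pericyte-like cells in all 6 libraries for 18 members, against 17.3% of all genes tested. Again 0 of the 6 stress regulators were among them, a count near that share. The regulator Herpud1 was still 2-fold higher in heart infarct and heart peri-infarct, where all genes split into 301 higher and 300 lower, and 320 and 316. With TMM the stress regulators' medians were 0.51, 0.58 and 0.59 in heart sham, infarct and peri-infarct, and 0.14, -0.00 and 0.02 in brain. Ckap4 (median log2 ratio 1.34), Pdia6 (1.23) and Ssr4 (1.02) had the highest medians. Ddit3 was lower in fibroblast-like than in pericyte-like cells in every library, with log2 ratios from -2.33 to -0.19, but with TMM 1 library had the opposite sign (0.06). All 18 members kept their direction with TMM, and 25 then met the rule. TMM moved the ratios of all genes in these comparisons up by 0.08 to 0.49. The share of all genes that met the rule with TMM is not given, so the 25 has no background beside it. Pericyte-like cells stood above endothelial-like cells in all 6 libraries for 15 members, against 24.7% of all genes, including Ddit3 and Kdelr3. They stood above smooth muscle-like cells in all 5 libraries with both classes for 15, against 34.6%. With TMM only 10 and 2 members, respectively, stood higher in every library, so that these last counts depended on the scaling.

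Macrophage-like cells, present in 3 libraries, were lower than fibroblast-like cells for 15, 12 and 12 members in the infarct and peri-infarct of heart and the infarct of brain, where 20.5%, 19.4% and 24.3% of all genes were lower. The 1 member 2-fold higher in each was Sdf2l1 (16.5%, 17.4% and 13.7% of all genes higher), at 86.0, 104 and 234 CPM in macrophage-like cells. In both infarcts it reached 50 CPM only through the macrophage-like cells. With TMM the counts of lower members were 12, 9 and 8, and in brain infarct the split of all genes went from 362 higher and 643 lower to 625 and 489. Kdelr3 was the lowest relative to fibroblast-like cells in all 3.

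Levels were then set against collagen output over the 26 sums. Pearson's r between the logs of a member and of summed fibrillar collagen was at least 0.7 for 10 of 40 members, against 3.47% of all genes tested. These were Ckap4 (0.88), P4hb (0.84), Kdelr3 (0.83), Manf (0.78), Sec24d (0.76), Calr (0.76), Pdia6 (0.75), Sec31a (0.72), Hspa5 (0.71) and Hsp90b1 (0.70). By role, 4 of 7 exit, retrieval and shaping genes, 4 of 11 folding chaperones, 2 of 4 isomerases, 0 of 12 translocation genes and 0 of 6 stress regulators passed this value. Beside 3.47% of all genes, the counts of 0 are near the background. The role sums had r of 0.78 for exit, retrieval and shaping, 0.77 for folding chaperones, 0.75 for isomerases, 0.44 for translocation and 0.11 for the stress regulators. Herpud1 (-0.36) and Trib3 (-0.28) had the lowest single values.

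The 26 points are not independent: classes share a library, libraries share an organ, and depth differs among them, so r is given as a description with no p-value. Over the 14 heart sums alone the translocation genes had r of 0.88 and the stress regulators 0.26, and over the 12 brain sums 0.80 and -0.02. The translocation genes thus had a higher value within each organ than over all 26 sums. The members most like collagen, Ckap4 and P4hb, act in shaping the ER and in procollagen hydroxylation.

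**Figure D3:**
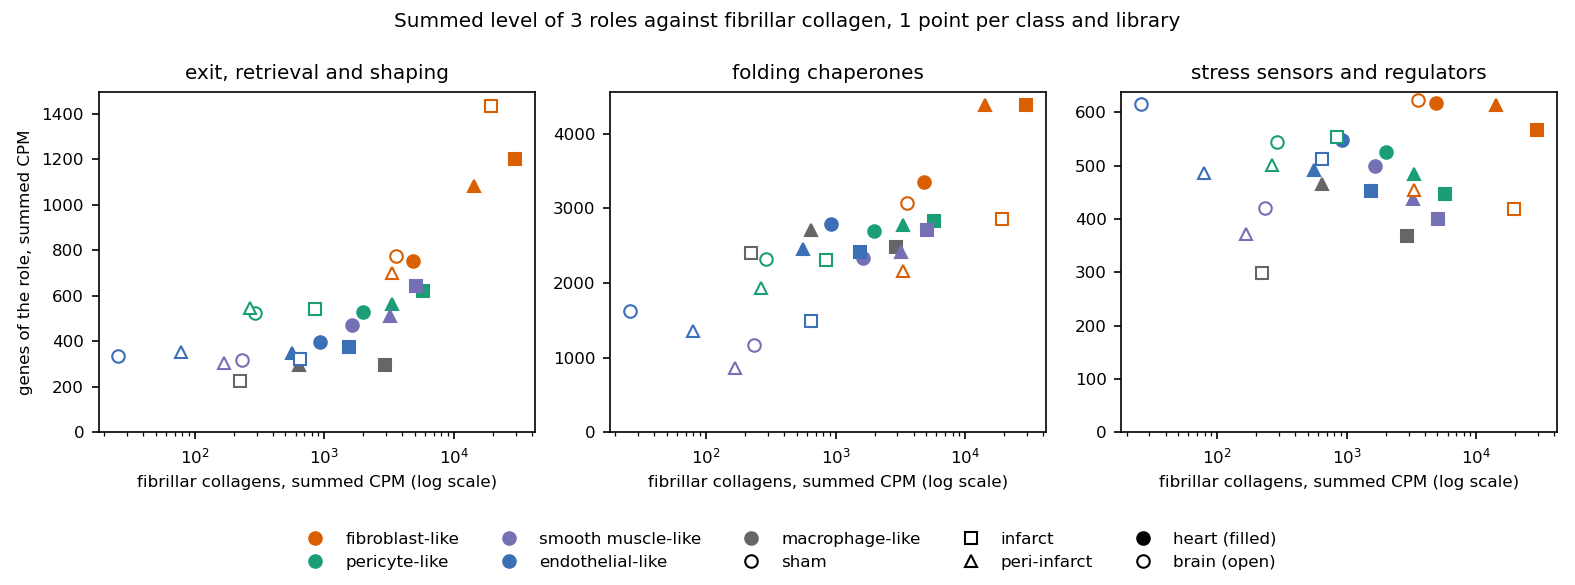
Summed CPM of 3 roles (vertical axis, starting at 0) against summed CPM of fibrillar collagens (horizontal axis, log scale), with 1 point for each of 26 sums of a class in a library, coloured by class and shaped by region, filled for heart and open for brain. The exit, retrieval and shaping genes (r of 0.78) are highest where collagen is highest, in infarct fibroblast-like cells, whereas the stress regulators (r of 0.11) show no such order.

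The same question was asked among fibroblast-like cells of 1 library. Cells were thinned to 1000 UMIs, ranked by their share of fibrillar collagen, and the members' CPM in the top tercile set against the bottom tercile. In all 6 libraries 7 of 40 members stood higher in the collagen-rich tercile, against 4.58% of all genes tested: Pdia3, P4hb, Sec61a1, Ssr2, Ssr3, Kdelr2 and Kdelr3. No stress regulator and no folding chaperone did so, which at that background share is no result about either role. Only P4hb had a counting interval above no change in every library. In heart sham the intervals of the rest of the 7 included no change. Heart pericyte-like cells were split alike. There Kdelr3 (-0.57) and Ssr3 (-0.25) were lower in sham and Kdelr2 (-0.19) in peri-infarct, with intervals that included no change. The other heart pericyte-like ratios of the 7 were above 0. Median log2 ratios over the 6 libraries were 0.95 for Kdelr3 (range 0.08 to 2.19), 0.69 for P4hb (0.27 to 0.96), 0.54 for Kdelr2 and 0.54 for Ssr3, and 0.03 for Hspa5, -0.01 for Atf4 and -0.01 for Ddit3.

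Sizes differed between the organs. No member that reached 50 CPM was 1.5-fold higher in heart sham or heart infarct, where 0.512% and 3.96% of all genes tested did, and 2 did so in heart peri-infarct, Ssr2 and P4hb (5.01%). Sdf2l1, under 50 CPM, was lower in the collagen-rich tercile of heart infarct (log2 ratio -0.65). The brain libraries had 11, 11 and 6 members at least 1.5-fold higher in sham, infarct and peri-infarct, beside 26.0%, 6.25% and 15.7% of all genes, so that the sham and peri-infarct shares were near the background. Manf and Spcs2 were 1.5-fold lower in brain sham. In brain infarct Kdelr3 was 293 CPM in the collagen-rich and 109.95 CPM in the collagen-poor tercile (log2 ratio 1.41), and Kdelr2 689.9 and 334 CPM (1.04). Collagen-rich cells of brain infarct had a median of 30452.5 UMIs and collagen-poor cells 23507.5, and in brain sham 4792 and 6867, so that depth moved in opposite directions in the 2 libraries. When brain infarct cells were ranked on collagen IV instead, the members' median was 0.01 against 0.29. Fibroblast markers also differed between the collagen-rich and collagen-poor terciles. They summed to 52053 and 48679 CPM in heart sham, 19218 and 24117 in heart infarct, and 27867 and 43799 in heart peri-infarct. The brain sums were 9216 and 5489 CPM in sham, 5520 and 7230 in infarct, and 7969 and 5852 in peri-infarct. Their part in the ratios was not tested.

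**Figure D4:**
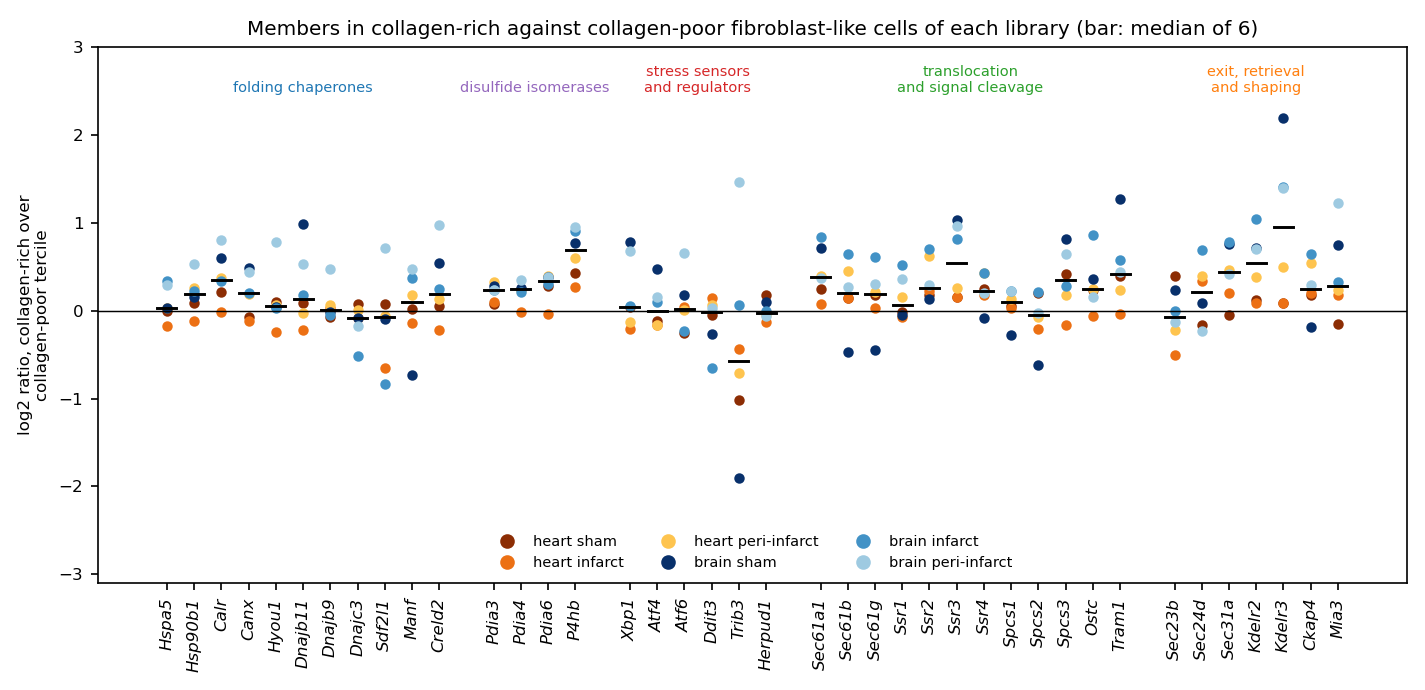
Log2 ratio of each member in the collagen-rich over the collagen-poor tercile of fibroblast-like cells (vertical axis), 1 point per library and a bar at the median of 6, with members grouped by role along the horizontal axis. All 6 points lie above 0 for P4hb, Kdelr2 and Kdelr3, among others, and the medians of Hspa5, Atf4 and Ddit3 lie at 0.03, -0.01 and -0.01.

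Other genes of the pathway were counted from 6 lists of 86 genes. In heart fibroblast-like cells, infarct against sham, 3 of 20 other COPII and cargo receptor genes passed 2-fold, all of them higher: Surf4, a cargo receptor, Creb3l2, a factor that raises COPII genes in collagen-secreting cells, and Tmed3, with log2 ratios of 1.55, 1.26 and 1.05. Of 15 other oxidative folding and quality control genes 1 was higher, Erp29 (1.19), and 1 lower, Txndc11 (-1.48). No gene of ER-associated degradation (15), the oligosaccharyltransferase (10) or signal recognition (12) passed 2-fold among those that reached 50 CPM (10, 10 and 9). Edem1, of ER-associated degradation, was under that level with a log2 ratio of 1.02. All these list counts stand beside 6.62% of all genes tested higher and 5.47% lower. Of 14 stress kinases and targets of ATF4 or CHOP, Nupr1 was higher (1.23), and Atf3 (-2.04) and Ppp1r15a (-1.71) lower. Under 50 CPM, Asns (1.20) was past 2-fold higher and Slc7a11 (-1.01) past 2-fold lower. Immediate early and heat shock genes were also lower in the infarct. In the collagen-rich and collagen-poor terciles they summed to 19381 and 20269 CPM in sham and 14128 and 13112 CPM in infarct. Their part in these ratios and in the stress regulators' median of this class was not tested.

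In brain fibroblast-like cells Ppib, a cyclophilin that acts on procollagen, was higher (1.18), as were 2 of the 10 oligosaccharyltransferase genes, Krtcap2 (1.36) and Dad1 (1.30), and Stt3b was lower (-1.09). Among those of the 14 stress genes that reached 50 CPM, 0 were higher and 3 lower, Slc7a11 (-2.93), Atf3 (-1.68) and Vegfa (-1.68). Of all genes tested, 22.3% were lower and 11.9% higher. Stress genes under 50 CPM went both ways past 2-fold. Asns (2.46), Psat1 (2.19) and Shmt2 (1.18) had higher and Ddit4 (-2.33) and Ern1 (-1.68) lower values. Immediate early and heat shock genes summed to 15138 and 16098 CPM in the collagen-rich and collagen-poor terciles of sham. In infarct they summed to 10831 and 11312 CPM, and their part was not tested. Os9, of ER-associated degradation, and Mia2 and Creb3l2 were lower as well. Creb3l2 thus had opposite signs in the 2 organs, at 1.26 and -1.21. In brain pericyte-like cells Ppp1r15a (1.57) and Atf3 (1.37) were the only genes of the 6 lists past 2-fold among the 54 that reached 50 CPM, and both were higher, beside 3.95% of all genes tested. Under that level, Slc7a11 (-2.87) and Sec24a (-1.30) had lower and Asns (1.39) and Creb3l1 (1.43) higher values.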

How the data were processed

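For each library the authors deposited unnormalized counts of UMIs, by gene and by cell barcode. Per the submitters' processing notes, Cell Ranger 3.0.2 and Seurat 3 were used; the Seurat steps are not given in the sources used here. Libraries were made with the 10x 3′ chemistry, per the labels' protocols, and the tdT transcript was not used here. Barcodes found in more than 1 library were dropped, and cells with at least 500 genes and at most 10% mitochondrial UMIs were kept. No doublet caller was run. Cells were thinned to 2000 UMIs and classed by marker lists (score at least 0.35, lead at least 0.12), and the scoring rule was set after the data were seen. The members and all lists were chosen with earlier results of these data known. Counts were summed per class and library where at least 50 cells were present, divided by the sum's total and multiplied to CPM. A gene whose mean over both sides reached 50 CPM was tested against 2-fold on CPM plus 1. The 95% intervals are Poisson intervals, covering counting error only. No test across samples was possible, each group having 1 library. All 40 members are described by role, with values per library for 19 of them and for the 3 highest and 3 lowest ratios of each main comparison, and up to 3 genes per other pathway list. Alternatives were 17 planned and 2 added after seeing the data, and TMM factors were also applied, after seeing the data, to the counts of members higher in every library. The ratio step was tested on simulated data. Tools were Python 3.11.15, numpy 2.4.6, scipy 1.17.1, pandas 2.3.3, scikit-learn 1.9.0, igraph 0.11.9, matplotlib 3.10.9, R 4.3.3 and edgeR 4.0.16 (TMM factors only).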

Additional observations from a re-analysis of the deposited data

Results flagged for a closer look

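For 3 results, heart and brain moved in opposite directions between infarct and sham, with both counting intervals excluding no change and each log2 ratio at least 0.25 in size. With 1 library per group the difference itself was not tested. Dnajb11, a BiP co-chaperone, had log2 ratios of 0.41 in heart and -0.61 in brain fibroblast-like cells, a difference of 1.02; with TMM scaling they were 0.43 and -0.20, the latter under 0.25 in size. Mia3, which helps load bulky cargo such as collagen at ER exit sites, had 0.52 and -0.78 in the same class, a difference of 1.29, and with TMM 0.55 and -0.37. Atf4 in pericyte-like cells had -0.55 in heart and 0.30 in brain, a difference of -0.85.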

How the results depend on the processing

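No paired analysis was possible because each group holds 1 library. Of the values that answer a comparison, 274 under an alternative stayed near their main value and none reversed; the others follow, and the cause was not tested. For the counts in this paragraph the shares of all genes are not given, apart from the TMM splits above. In heart fibroblast-like cells, infarct against sham, 13 members were higher at 1.5-fold and 10 with cells of no class joined. Peri-infarct against sham gave 1 higher member with at least 1000 genes per cell, TMM, a mean over cells, thinned cells, a pseudocount of 10 or free RNA subtracted, 5 by clusters, 15 at 1.5-fold and 6 with cells of no class joined. In heart pericyte-like cells the 2 higher members became 4 with at least 1000 genes per cell, 1 without the deepest 5% of cells or with a pseudocount of 10, 0 with a mean over cells or thinned cells and 8 at 1.5-fold, and lower members became 1 with a 20 CPM filter, 2 with none and 1 at 1.5-fold. In brain fibroblast-like cells, infarct against sham, higher members became 12 with TMM, 12 at 1.5-fold and 10 with cells of no class joined, lower members 1 with a stricter gate, TMM or a mean over cells, 4 with a 20 CPM filter or none and 5 at 1.5-fold, and the member median 0.61 with TMM. In brain pericyte-like cells 1 was higher by clusters, and 3 higher and 1 lower at 1.5-fold. Against endothelial-like cells, heart infarct fibroblast-like cells had 23 higher with TMM and 26 at 1.5-fold, 1 lower with no filter and a median of 1.14 with TMM, and brain infarct had 1 lower with shared barcodes kept, clusters, the deepest 5% out, a 20 CPM filter or cells of no class joined, and 2 with no filter or 1.5-fold. Ranked on collagen IV, the median between collagen terciles in brain infarct was 0.0143. Role medians in heart infarct fibroblast-like cells lay at 0.78 to 0.995 for exit, retrieval and shaping and -0.15 to 0.04 for the stress regulators over 15 alternatives, and in brain at 0.39 to 1.07 and -0.78 to -0.30. Depth limits low members such as Trib3, Atf6 and Hyou1.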

Other observations

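Mesothelial-like cells, found in the 3 heart libraries (250, 269 and 215 cells in sham, infarct and peri-infarct), had a higher sum of the 40 members than fibroblast-like cells of the same library. The 40 members summed to 9087, 13349 and 13916 CPM in them, with 3136, 11105 and 9112 CPM of fibrillar collagens. Hspa5 was 914, 1227 and 1328 CPM, Hsp90b1 1211, 1409.9 and 1594 CPM, and Calr 1102, 1696 and 1774 CPM. Kdelr3 was lower than in fibroblast-like cells of the same libraries, at 32.9, 72.5 and 56.0 CPM. The 727 brain infarct cells that passed no gate had a member sum of 13940 CPM and 18063 CPM of fibrillar collagens, against 12361 and 19400.0 CPM in the fibroblast-like cells of that library.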
